A study of Danio rerio with 4 samples.

Results

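Polysomal mRNA was compared with total mRNA in wild-type embryos of the zebrafish (Danio rerio) gene by gene, at a stage of about 24 hours post fertilization and with 1 library each. The comparison uses 2 of the 4 libraries of a study of eIF3h, a subunit of the translation initiation factor eIF3. The submitters give 300 embryos for polysomal RNA and 50 for total RNA, without saying whether these numbers are per library. RNA of polysomal fractions or of whole embryos was prepared as polyA mRNA and read as single 36-base reads. The other 2 libraries are polysomal and total mRNA of eif3ha morphants, embryos in which a morpholino (an antisense oligonucleotide) targets eif3ha. They are given beside the wild-type values as the same measure in libraries that the wild-type comparison does not use. The labels name no embryos injected with a control morpholino, and do not say whether the 300 and the 50 embryos came from the same clutches. With 1 library in each group there is no replicate, so no difference below carries a test, and counting intervals cover counting error only.

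A ribosome that has begun translation leaves the start of an mRNA free for the next, so an actively translated mRNA carries a row of ribosomes, a polysome, and sediments with the heavy fractions of a lysate. The abundance of an mRNA in those fractions relative to total RNA is the usual measure of how much of it is engaged with ribosomes. Loading is known to be controlled mainly at initiation, through the cap-binding factors, through upstream open reading frames, and through the terminal oligopyrimidine (TOP) tract that ribosomal protein mRNAs carry at their start in vertebrates. A short coding sequence holds fewer ribosomes than a long one, and maternal or tissue-specific mRNAs can be stored off ribosomes.

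The authors' values are RPKM (reads scaled to the length of the gene model and to the mapped reads of the library), which allow levels of different genes to be set side by side per length. Of the 32313 genes in the files, 12072 reached 3 RPKM in at least 1 wild-type library and make up the comparison. The log2 ratio below is log2 of polysomal RPKM plus 0.5 over total RPKM plus 0.5, so 0 is an equal value in both libraries, 1 is 2-fold higher in polysomal mRNA, and low genes are drawn towards 0. Where an interval is given, it is that of the plain ratio of reads scaled to depth, with no 0.5 added, so it can lie outside the log2 ratio of a low gene. Just inside the floor, 450 genes had their higher value between 3 and 3.3 RPKM and a median log2 ratio of -1.03. Just outside it, 511 genes between 2.7 and 3 RPKM had a median of -1.07. Each gene's reads could be worked back from its 4 RPKM values for 99.3% of the genes above the floor.

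Depth worked back in this way was 15769466 mapped reads in wild-type polysomal, 24939985 in wild-type total, 22001387 in morphant polysomal and 21021428 in morphant total mRNA. The floor was met by 7737 genes in wild-type polysomal and 11551 in wild-type total mRNA, and by 7752 in morphant polysomal and 11657 in morphant total mRNA. The top 50 genes held 43.7% of the summed RPKM in wild-type polysomal and 24.2% in wild-type total mRNA, and 38.8% in morphant polysomal and 24.1% in morphant total mRNA. Of 39 marker genes of 12 embryonic tissues, 32 reached 3 RPKM in wild-type total mRNA, and 11 tissues had such a marker. The tissue without one was the myeloid lineage, whose marker lyz stood at 20.6 RPKM in polysomal and 2.33 in total mRNA of wild type. The gene named EIF3H (ENSDARG00000036116) had 6.33 RPKM in wild-type polysomal and 6.24 in wild-type total mRNA, a log2 ratio of 0.02 (95% interval of the read ratio -0.42 to 0.44). Its symbol carries no copy letter, so whether it is the targeted eif3ha is not known here. Symbols in capitals are orthologue-type names.

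The polysomal library was not a scaled copy of the total library. Log2 ratios ran from -6.94 to 7.21, with a median of -0.71 and quartiles at -1.97 and 0.23. Of the 12072 genes, 1267 (10.5%) were at least 2-fold higher in polysomal mRNA and 5156 (42.7%) at least 2-fold lower, and these 2 shares are the background against which the gene groups are read. At 4-fold the counts were 282 higher and 2968 lower, and at 16-fold 18 higher and 414 lower. A total of 521 genes passed the floor through the polysomal library alone, 4335 through the total library alone and 7216 in both. At the low end, 379 genes had no polysomal read at all, and 295 of these had at least 100 reads in total mRNA.

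RPKM is relative to the mapped reads of each library, so the zero point of the ratio depends on scaling. Median-of-ratios scaling moved the median of all genes up by 0.71, upper-quartile scaling by 0.40 and leaving out the 50 most abundant genes by 0.39. Of the genes past 2-fold, 19.7% were higher in polysomal mRNA with the authors' scaling, 45.5% with median-of-ratios, 33.7% with upper-quartile scaling and 33.6% without the top 50. Each group is therefore also placed above or below the median of all genes (-0.71), which a scaling shifts almost as much as the groups. With another floor (none, 12 RPKM, or 3 RPKM in both libraries), 12 groups took the other side in at least 1 setting: synthetases, ribosome biogenesis, secretory machinery, cell cycle, immediate early, noncoding, Hox, neuronal, progenitor, segmentation, pigment and hatching gland genes. A group whose median lies between -0.71 and 0 is above the median gene although its log2 ratio is negative.

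**Figure D1:**
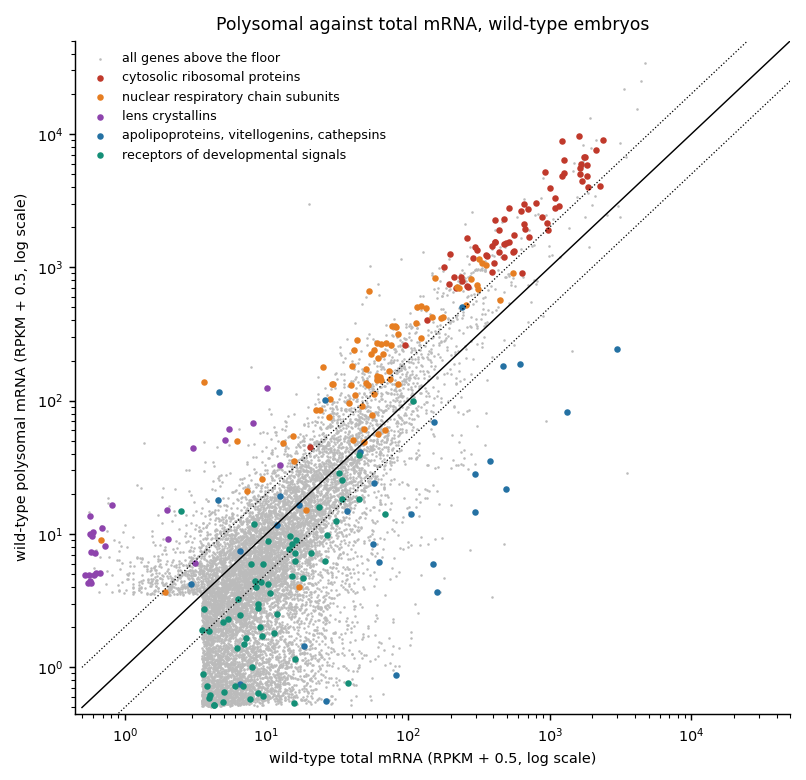
Each point is a gene above the floor, with its wild-type total RPKM on the horizontal and its wild-type polysomal RPKM on the vertical axis (0.5 added to both, log scales). The solid line is an equal value and the dotted lines are 2-fold. Cytosolic ribosomal proteins lie at the top right, above the equal line, nuclear respiratory chain subunits lie above it at middle levels, and most receptors lie below it.

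The mRNAs of cytosolic ribosomal proteins stood highest in polysomal mRNA of the abundant gene groups. The 37 large-subunit and 31 small-subunit genes that entered the comparison reached 3 RPKM in both libraries, all of them lay above the median gene, and 35 of the large and 30 of the small subunit were at least 2-fold higher in polysomal mRNA. Their median log2 ratios were 1.64 for the large and 1.90 for the small subunit, against -0.71 for all genes. Together the large-subunit genes made up 10.9% of all polysomal and 6.26% of all total RPKM, and the small-subunit genes 13.4% of polysomal and 6.53% of total RPKM. In the morphants the medians were 1.15 for the large and 1.37 for the small subunit. The largest ratio was that of RPL29 (ENSDARG00000077717), at 8899 RPKM in polysomal and 1230.1 in total mRNA, a log2 ratio of 2.85 (2.82 to 2.89). It was followed by rps27.2 (2.67), RPS28 (1656 in polysomal and 262 RPKM in total mRNA, 2.66) and RPS29 (2.57), which are among the shortest proteins of the ribosome. At the other end were RPL4 (913 RPKM in polysomal and 633 in total mRNA, log2 ratio 0.53), RPS6 (4089 and 2270.5 RPKM, 0.85) and RPL3 (0.97), which are longer ribosomal proteins. Ribosomal protein genes have close pseudogene copies in many genomes, so the split of reads between copies such as the 2 genes named RPL5 is uncertain. Gene model lengths could be worked back for fewer than 80% of these genes, so a comparison with genes of like length is void for them.

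Other parts of the translation machinery were closer to the median gene and split within complexes. The 12 genes of eIF3 subunits had a median log2 ratio of 0.53, with 2 genes at least 2-fold higher and 2 lower. The scaffold subunits stood lowest: EIF3B (ENSDARG00000059654) had 64.1 RPKM in polysomal and 308 in total mRNA, a log2 ratio of -2.25 (-2.33 to -2.197), and EIF3A (ENSDARG00000076815) had 88.4 and 211 RPKM, -1.25. The subunits EIF3K (551 in polysomal and 209 in total mRNA, 1.399) and EIF3M (496 and 227, 1.12) stood highest. In the morphants the same 4 genes had log2 ratios of -1.55, -1.47, 1.005 and 0.74.

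The 35 other initiation factors had a median of 0.05, with 5 at least 2-fold higher and 5 lower. The lowest were the large scaffold EIF4G3 (ENSDARG00000077215, 1.46 RPKM in polysomal and 12.98 in total mRNA, log2 ratio -2.78), the exchange factor subunit EIF2B5 (-2.37) and EIF4G1 (-1.82). The highest was EIF1B, a start-codon selection factor, at 293 in polysomal and 92.6 RPKM in total mRNA (1.66). Among 7 elongation and release factors (median 0.70) the most abundant, eef1a1l1, had 3398 RPKM in polysomal and 2092 in total mRNA (0.70), while the release factor ETF1 had 32.4 and 75.9 RPKM (-1.22). The 11 further genes whose mRNAs are TOP mRNAs in mammals had a median of 0.56 and did not lie together. BTF3, a factor that binds nascent chains, was at 1.35, whereas the poly(A)-binding proteins pabpc1a (83.8 RPKM in polysomal and 262 in total mRNA, -1.64) and pabpc1b (-1.99) were more than 2-fold lower. The search for a pyrimidine tract at the starts of these genes was not run, since no promoter sequence was used here.

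Aminoacyl-tRNA synthetases and ribosome biogenesis factors lay near the median gene, in contrast to the ribosomal proteins themselves. Of 19 synthetase genes (median -0.46), 16 lay between -1.43 (NARS1) and 0.08 (RARS1), and the 3 genes at least 2-fold higher were AIMP1 (ENSDARG00000036894, 2.15, and ENSDARG00000060036, 1.402) and AIMP2 (1.42). The AIMP proteins are small scaffolds of the multi-synthetase complex and not enzymes. Of 65 ribosome biogenesis factors (median -0.58), 2 were at least 2-fold higher and 17 lower. The lowest, mybbp1a, had 0 reads in polysomal and 198 in total mRNA (-4.48), and the most abundant, FBL, the methyltransferase of box C/D particles, had 147 and 218 RPKM (-0.57).

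Mitochondrial genes formed the other large set above the median gene. Of 75 nuclear-encoded respiratory chain subunits, 60 were at least 2-fold higher in polysomal mRNA and 1 lower (ndufa9b, -2.09), with a median log2 ratio of 1.60 in wild type and 1.27 in morphants. By complex the medians were 1.77 for complex I (36 genes), 1.24 for complex II (4), 1.31 for complex III (8), 1.28 for complex IV (11) and 1.701 for the ATP synthase (15). Among the high members were accessory subunits. NDUFB1 had 668 RPKM in polysomal and 52.5 in total mRNA (3.66), ndufa5 177 and 24.5 RPKM (2.83), and cox6c 834 and 155 RPKM (2.43). Near 0 were the large core and catalytic subunits NDUFS1 (-0.18), SDHA (-0.34), UQCRC2 (-0.14) and UQCRC1 (0.01). Exceptionally high was cox6b1 (ENSDARG00000045230) at 137 RPKM in wild-type polysomal and 3.104 in wild-type total mRNA (5.25, 5.08 to 5.94), against 25.5 RPKM in morphant polysomal and 6.01 in morphant total mRNA (1.997). Its paralogue cox6b2 had 1046 RPKM in polysomal and 352 in total mRNA of wild type (1.57), and cox4i1l, which passed the floor through the polysomal library alone, was at 3.73 with 2 reads in total mRNA.

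The 62 mitochondrial ribosomal proteins, which are made in the cytosol, had a narrow spread. They ran from -0.33 (MRPL43) to 1.87 (mrpl58), with a median of 1.07, and all 62 lay above the median gene, with 33 at least 2-fold higher and none lower. Their median gene model length was 1.12 kb. Relative to the median of genes of like length their median was 1.53, and that of the respiratory chain subunits was 2.02.

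The 13 mRNAs encoded by mitochondrial DNA are translated by mitochondrial ribosomes inside the organelle, not by the cytosolic ribosomes whose polysomes the fractions were taken for. They were abundant in the polysomal library, with 8.98% of its summed RPKM against 6.02% in total mRNA. The members spread widely around a median of 0.94. MT-CO3 had 21694 RPKM in polysomal and 3355 in total mRNA (2.69), and MT-CO1 15281 and 4111 RPKM (1.89), both core subunits of complex IV. MT-CYB of complex III was at 2.01. By contrast MT-ND5 (390.3 in polysomal and 699 RPKM in total mRNA, -0.84) and mt-nd4l (-1.051) were lower in polysomal mRNA. In the morphants the same 5 genes stood at 2.09, 1.52, 1.81, -0.998 and -0.86, in the same order.

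Other core cellular machinery lay above the median gene as groups, but the cell cycle genes did so only with some of the floors. The 36 proteasome subunits had a median of 0.56, with 4 at least 2-fold higher and none lower, and the regulatory particle subunits PSMD1 (-0.93) and PSMD12 (-0.88) were the exceptions that lay below the median gene. The 74 splicing factors and hnRNP proteins had a median of 0.06, but the 10 snRNP core proteins, small proteins that ring the spliceosomal RNAs, had a median of 1.099 with 6 at least 2-fold higher. Among the large splicing proteins PRPF8 had 16.3 RPKM in polysomal and 64.2 in total mRNA (-1.95) and SNRNP200 23.5 and 52.4 RPKM (-1.14). The 56 chaperones had a median of -0.10, with CCT4 at 0.68 and cct2 at -1.66 although both encode subunits of the same chaperonin ring. The 85 DNA replication and cell cycle genes had a median of -0.36, from CCND2, a G1 cyclin, at -4.14 to CENPX, a small centromere protein, at 2.34. CCND2 passed the floor through total mRNA alone, which fixes it as lower. The 77 cell cycle genes with 3 RPKM in both libraries had a median of -0.17, where that of all genes was -0.16. The list of selenoproteins, peroxiredoxins and related enzymes held 50 genes (median 0.27), of which 9 were septins that its pattern also took. Of the other 41, 17 were at least 2-fold higher and 7 lower (median 0.81). SOD2 was at 2.495, and selenop, which carries selenium in plasma, had 15.9 RPKM in polysomal and 199.7 in total mRNA (-3.61). Of all 50 genes, 4 passed the floor through polysomal mRNA alone and 5 through total mRNA alone, which fixes their direction.

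**Figure D2:**
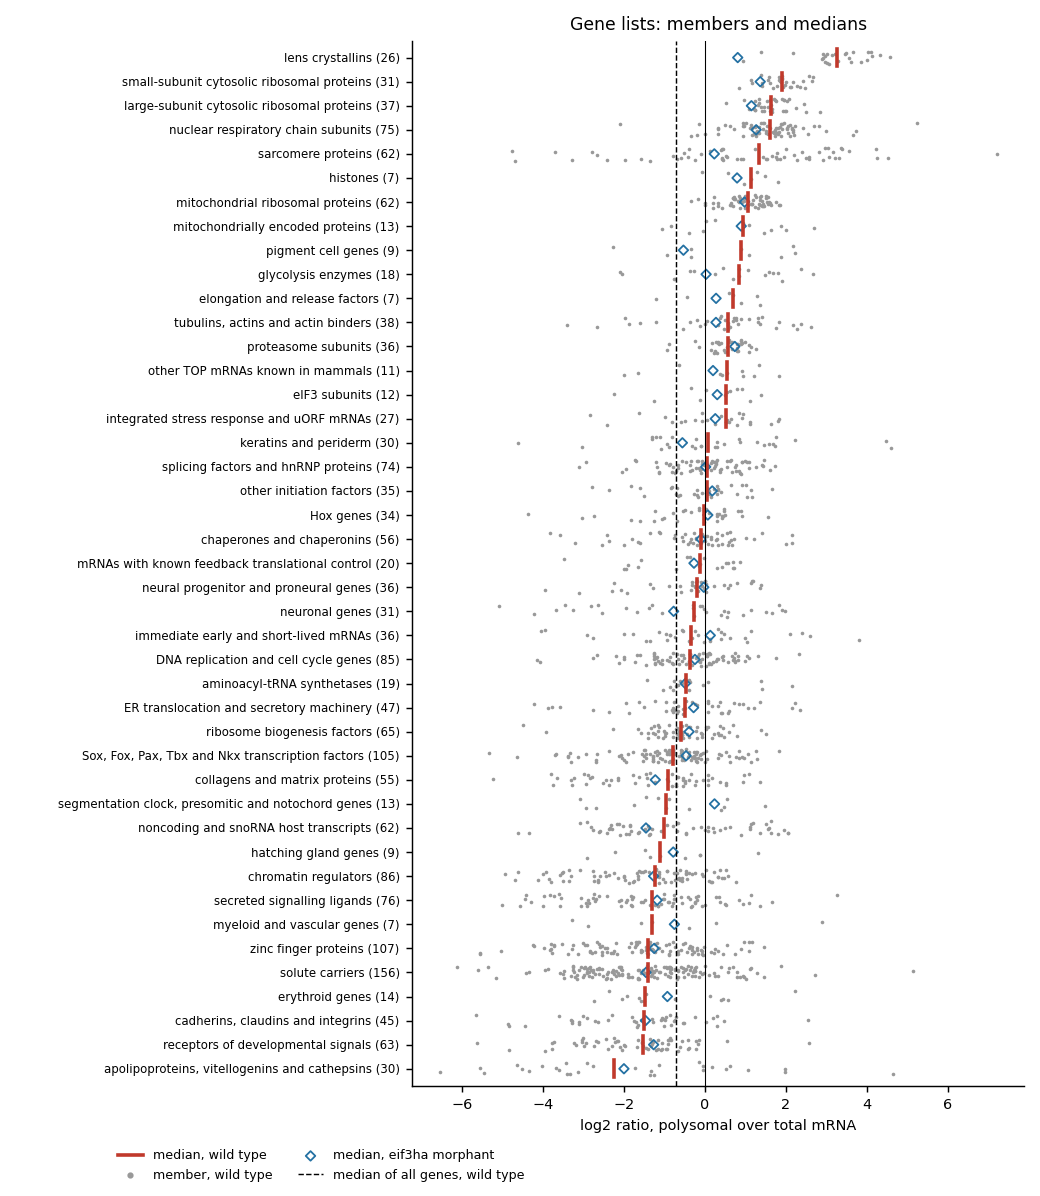
Each row is a gene group with its number of genes above the floor, each grey point a member's wild-type log2 ratio of polysomal over total mRNA, each red bar the wild-type median and each blue diamond the morphant median. The dashed line is the median of all genes in wild type, -0.71. The group of selenoproteins and related enzymes is not drawn. Lens crystallins (3.26), cytosolic ribosomal proteins and respiratory chain subunits are at the top, and apolipoproteins, vitellogenins and cathepsins (-2.25) at the bottom.

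Muscle genes held the highest single ratio. Of 58 sarcomere and muscle genes (4 nonmuscle myosins that the list's pattern also took are left out), 32 were at least 2-fold higher in polysomal mRNA and 6 lower, with a median of 1.52. For the whole list of 62 genes the median was 1.34 in wild type and 0.24 in morphants. Of these 62, 10 passed the floor through the polysomal library alone and 8 through the total library alone, which fixes their direction, and the 44 with 3 RPKM in both had a median of 1.34. The parvalbumin pvalb1 (ENSDARG00000037789), a calcium buffer of fast muscle, had 2972 RPKM in wild-type polysomal and 19.5 in wild-type total mRNA. The same gene had 295 RPKM in morphant polysomal and 59.4 in morphant total mRNA. Its log2 ratio was 7.21 in wild type (7.095 to 7.42) and 2.301 in morphants, the highest of all genes with a symbol in wild type.

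Other fast-muscle genes showed the same pattern of a high wild-type polysomal value. The fast troponin TNNI2 (ENSDARG00000029069) had 1015 RPKM in wild-type polysomal, 53.2 in wild-type total, 366 in morphant polysomal and 125 in morphant total mRNA, with log2 ratios of 4.24 and 1.54. TNNT3 (ENSDARG00000030270) had 385, 42.1, 156 and 79.9 RPKM in the same libraries (3.18 in wild type and 0.96 in morphants). Actin ACTA1 and the creatine kinases ckma and ckmb, which buffer ATP, were also above 2-fold in wild type, at 1.80 for the higher of 2 genes named ACTA1, 1.66 and 1.97. The myosin heavy chains of fast fibres were less high: myhz1.1 was at 1.43, myhz2 at 0.93 and myhz1.3 at 0.41 in wild type, against -0.60, -0.79 and -0.92 in morphants. These heavy chain genes are near copies of each other, so reads may be split between them. The giant proteins were lower still, with NEB at -0.42 and the 2 genes named TTN at -0.38 and -0.77.

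Not every muscle gene was high. Of 7 parvalbumins in the comparison, 2 of them through the polysomal library alone, 6 were at least 2-fold higher and pvalb9 (ENSDARG00000071601) was lower, at 9.03 RPKM in polysomal and 124 in total mRNA (-3.704 in wild type and -4.36 in morphants). The heart gene MYL7, a myosin light chain of the atrium and early heart tube, had 1.46 RPKM in polysomal and 9.93 in total mRNA (-2.41), and MYH6 was at -3.29. The cardiac troponin tnnt2c was at -1.36. Muscle forms of glycolytic enzymes were high. ENO3 was at 57.2 RPKM in polysomal and 8.52 in total mRNA (2.68) and PGAM2 at 2.38, against the liver form PKLR at 4.21 RPKM in polysomal and 19.6 in total mRNA (-2.096). Over all 18 glycolytic genes the median was 0.85 in wild type and 0.03 in morphants.

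The lens crystallins, refractive proteins of lens fibres, had a median of 3.26 over 26 genes, and 25 were at least 2-fold higher in polysomal mRNA. Of these 26, 21 passed the floor through the polysomal library alone, which fixes their direction, so their count supports nothing further. Reads are few in total mRNA: the 30 gamma M crystallins of the files together had 2539 reads in wild-type polysomal and 58 in wild-type total mRNA, against 90 in morphant polysomal and 27 in morphant total mRNA. The gamma M genes resemble each other closely, and their reads are best read as a sum. The 5 lens genes with 3 RPKM in both libraries had a median of 3.295, among them cryba1l1, at 124 RPKM in wild-type polysomal, 9.63 in wild-type total, 17.5 in morphant polysomal and 8.65 in morphant total mRNA (3.62 and 0.98). CRYBA4, at 32.2 RPKM in polysomal and 11.99 in total mRNA of wild type (1.39), was the most moderate of them.

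Genes of the fin fold, pigment cells and matrix were mixed. The actinodins, proteins of the rods that stiffen the fin fold, had a summed 41.8 RPKM in wild-type polysomal and 2.36 in wild-type total mRNA, against 7.84 in morphant polysomal and 7.59 in morphant total mRNA. All 3 passed the floor through the polysomal library alone. Of 9 pigment cell genes (median 0.90 in wild type and -0.53 in morphants), both genes named TYRP1, a melanosome enzyme, were more than 2-fold higher (ENSDARG00000056151 at 54.8 in polysomal and 11.2 RPKM in total mRNA, 2.24). TYR, the rate-limiting enzyme of melanin synthesis, was lower, at 1.46 RPKM in polysomal and 9.01 in total mRNA (-2.28). Bone and skin collagen COL1A1 (ENSDARG00000035809) had 173 RPKM in wild-type polysomal and 67.3 in wild-type total mRNA (1.35), against 82.8 in morphant polysomal and 88.1 in morphant total mRNA (-0.09). It had the highest ratio of the 55 collagens and matrix proteins, of which 2 were at least 2-fold higher and 26 lower. The share lower was 47.3%, against 42.7% of all genes. Of these 55, 18 passed the floor through total mRNA alone, which fixes them as lower, and the 37 with 3 RPKM in both had a median of -0.53.

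The parvalbumins summed to 3809.6 RPKM in wild-type polysomal and 205 in wild-type total mRNA, against 593 in morphant polysomal and 289 in morphant total mRNA. The sums of the beta and gamma N crystallins were 409.9, 48.03, 81.3 and 48.9 RPKM in the same 4 libraries. The age and makeup of the embryos behind the wild-type polysomal library, and the translation of these mRNAs, cannot be told apart here. In RNA of whole embryos, fewer cells of a type in a pool and less RNA of a gene per cell cannot be told apart.

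Markers of blood, hatching gland and skin lay on both sides of the median gene. Of 14 erythroid genes (median -1.48), the abundant embryonic globins hbbe3 (852 RPKM in polysomal and 648 in total mRNA, 0.39) and hbae3 (0.14) were near 0 in wild type, and hbae1.3 was at 2.23. The haem synthesis enzymes alas2 (-1.58), UROD (-1.92) and FECH (-1.49) and the erythroid regulators gata1a (-1.46) and TAL1 (-2.05) were all more than 2-fold lower. Of the 14 erythroid genes, 5 passed the floor through total mRNA alone, FECH and gata1a among them, and 2 through polysomal mRNA alone. The floor fixes the direction of these genes, and the 7 with 3 RPKM in both had a median of -0.73. Of 9 hatching gland genes (median -1.11), the cathepsin ctslb had 13.6 RPKM in polysomal and 105 in total mRNA (-2.91), and the 3 hatching enzymes lay between -2.23 and -0.48. Keratins and periderm genes spread from -4.61 for evpla, a large plakin of cell junctions, to 4.597 for the actinodin and3, a fin fold gene that the list also holds. Of these 30 genes, 9 were at least 2-fold higher and 7 lower, with a median of 0.08 in wild type and -0.55 in morphants. The most abundant keratin, krt4, had 2865 RPKM in wild-type polysomal and 3045 in wild-type total mRNA (-0.09), against 2397 and 4400.1 RPKM in morphants (-0.88).

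Neuronal genes were split. Of 31, 6 were at least 2-fold higher and 13 lower (42.7% of all genes were lower), with a median of -0.27 in wild type and -0.77 in morphants. The stathmin STMN2 (ENSDARG00000070537, a regulator of axonal microtubules) had 53.5 RPKM in polysomal and 13.97 in total mRNA (1.899), and GNG3, a G protein subunit, was at 1.51. ELAVL3 (ENSDARG00000014420), an RNA-binding protein of new neurons, had 0.818 RPKM (73 reads) in polysomal and 44.5 RPKM (6368 reads) in total mRNA, a log2 ratio of -5.09 in wild type and -4.83 in morphants. The regulators ONECUT1 (-3.45) and ONECUT2 (-4.22) were low as well. Of the 31 neuronal genes, 9 passed the floor through total mRNA alone, ELAVL3, ONECUT1 and ONECUT2 among them, and 2 through polysomal mRNA alone. The floor fixes the direction of these genes. The 20 with 3 RPKM in both had a median of 0.0039, where that of all genes was -0.16. Progenitor genes lay above the median gene, with a median of -0.19 over 36 genes. SOX3 was at -0.09 and neurog1 at 0.80, while SOX2 was at 27.2 RPKM in polysomal and 66.6 in total mRNA (-1.27) and the 3 Notch receptors of the list were all at least 4-fold lower, led by NOTCH1 (-3.95). Of the 36 progenitor genes, 3 passed the floor through total mRNA alone, NOTCH1 and notch2 among them, and 1 through polysomal mRNA alone. The 32 with 3 RPKM in both had a median of -0.13.

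The lowest group held lipoprotein and protease genes of the yolk syncytial layer and liver. This layer at the surface of the yolk makes lipoproteins that carry yolk lipid into the embryo. Of 30 apolipoprotein, cathepsin, fatty acid binding and related genes, 20 were at least 2-fold lower in polysomal mRNA and 4 higher, with a median of -2.25 in wild type and -2.00 in morphants. The gene apobb.1 (ENSDARG00000022767), which the group's name pattern missed, encodes the structural protein of these particles. It had 2.85 RPKM (1017 reads) in wild-type polysomal and 391 RPKM (220999 reads) in wild-type total mRNA. In morphants it had 2.47 RPKM in polysomal and 573 in total mRNA, so its log2 ratio was -6.87 in wild type (-7.19 to -7.01) and -7.59 in morphants. The related gene APOB (ENSDARG00000042780) stood at -6.54, and MTTP, which loads lipid onto the particles, at 0.0572 RPKM in polysomal and 25.9 in total mRNA (-5.56). Of the 30 genes of the group, 4 passed the floor through total mRNA alone, APOB and MTTP among them, and 1 through polysomal mRNA alone. The floor fixes the direction of these genes, and of apobb.1, which also passed through total mRNA alone. The 25 with 3 RPKM in both had a median of -1.36, where that of all genes was -0.16.

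Other mRNAs of the same layer were low too. The abundant apoa1a had 245 RPKM in polysomal and 2988 in total mRNA (-3.61), apoa2 21.2 and 493 RPKM (-4.51), afp4 between -3.43 and -4.01 over 2 genes, and the plasma iron carrier tfa 3.16 and 161 RPKM (-5.46). Of 8 apolipoproteins in the comparison, 7 were at least 2-fold lower, with a median of -3.64 in wild type and -4.35 in morphants, and the exception, APOBEC2, is an RNA-editing family member that the name pattern took in. The 2 genes named FABP1, a fatty acid binding protein, stood at opposite ends: ENSDARG00000059227 had 14.04 RPKM in polysomal and 296 in total mRNA (-4.35), and ENSDARG00000019357 had 116 and 4.11 RPKM (4.65). The lysosomal proteases CTSD (-0.15) and CTSZ (0.18), which most cells make, were near 0. Relative to genes of like length the group's median was -2.30. Of the 29 genes of the group with a length, 15 had a gene model whose length is a multiple of 3, and the median of the other 14 was -0.10.

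Genes for surface proteins and signals lay below the median gene as groups. Many of them passed the floor through total mRNA alone, which fixes them as lower in polysomal mRNA, so each group's median is also given for its genes with 3 RPKM in both libraries, where that of all genes was -0.16. The 63 receptors of developmental signals had a median of -1.52, with 1 at least 2-fold higher (PDGFRL, 2.57) and 44 lower, and 12 above the median gene. Of these receptors 33 passed through total mRNA alone, and the median of the 29 with 3 RPKM in both was -0.92. TGFBR1 (ENSDARG00000042259), a receptor of TGF-beta, had 0.264 RPKM in polysomal and 37.1 in total mRNA (-5.62), and NOTCH3 13.6 and 68.7 RPKM (-2.29). The Frizzled receptors of Wnt were nearer to 0, with a median of -0.57 over 9 genes, and the more abundant of 2 genes named FZD7 (ENSDARG00000060004) had 98.4 RPKM in polysomal and 109 in total mRNA (-0.14). Among 76 secreted ligands and antagonists (median -1.30, 5 at least 2-fold higher and 45 lower), the axon guidance cue NTN1 had 0.0351 and 11.2 RPKM (-4.45). Of these ligands 45 passed through total mRNA alone, and the median of the 26 with 3 RPKM in both was -0.28. WNT11, a ligand of cell movement, was higher, at 68.8 RPKM in polysomal and 31.05 in total mRNA (1.14). The 45 cadherins, claudins, integrins and partners had a median of -1.51, with 1 gene at least 2-fold higher and 29 lower. Of these 45, 24 passed through total mRNA alone, and the median of the 21 with 3 RPKM in both was -0.74. ITGB1 (ENSDARG00000071863), the common beta chain of integrins, was at -4.84, CDH2, the neural cadherin, at -0.23, and the exception cldn1, a tight junction protein, at 313 RPKM in polysomal and 52.5 in total mRNA (2.56).

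Solute carriers, which move small molecules across membranes, had a median of -1.41 over 156 genes, with 8 at least 2-fold higher and 94 lower. Of these carriers 81 passed through total mRNA alone, and the median of the 69 with 3 RPKM in both was -0.59. The glucose transporter SLC2A1 (ENSDARG00000001437) had 1 read in polysomal and 1749 reads in total mRNA of wild type (0.0708 and 39.2 RPKM, log2 ratio -6.12), and 0.3297 and 46.6 RPKM in morphant polysomal and total mRNA (-5.83). The list also holds the ADP/ATP carriers of the inner mitochondrial membrane, of which SLC25A4 (ENSDARG00000027355) was among the 12 highest genes, at 47.9 RPKM in wild-type polysomal and 0.867 in wild-type total mRNA (5.15). In morphants SLC25A4 had 4.22 RPKM in polysomal and 2.52 in total mRNA (0.64), and it passed the floor in wild type through the polysomal library alone. Another ADP/ATP carrier, SLC25A5, was at 0.94, and the phosphate carrier SLC25A3 at 1.02.

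Nuclear regulators lay below the median gene as groups. The 86 chromatin regulators had a median of -1.23, with none at least 2-fold higher and 51 lower, and a median gene model length of 6.696 kb. Of these regulators 41 passed through total mRNA alone, and the median of the 45 with 3 RPKM in both was -0.60. KDM2B (ENSDARG00000036593), a histone demethylase, had 0.541 RPKM in polysomal and 26.3 in total mRNA (-4.69), and EP300, a histone acetyltransferase, 1.51 and 22.3 RPKM (-3.51). HDAC1, a deacetylase, was at 183 RPKM in polysomal and 144 in total mRNA (0.34). Relative to genes of like length the group's median was -0.30. The 107 zinc finger genes had a median of -1.41 with 4 at least 2-fold higher and 66 lower. Of these 107, 58 passed through total mRNA alone, and the median of the 49 with 3 RPKM in both was -0.38. The ZBTB subfamily, whose members pair a BTB domain with zinc fingers, had a median of -1.68 over 17 genes with none higher and 13 lower. The 7 histones above the floor had a median of 1.15, with h3f3a at 1014 RPKM in polysomal and 358 in total mRNA (1.501). Of these 7, 2 passed the floor through polysomal mRNA alone, which fixes them as higher, and the 5 with 3 RPKM in both had a median of 0.97. The gene models of the 7 had a median length of 0.5 kb, and that of h3f3a was 1919 bases. PolyA selection passes over the histone mRNAs that end without a tail. The 55 collagens and matrix proteins had a median of -0.90 and the longest gene models of any group, at 7.54 kb. Relative to genes of like length their median was -0.11.

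Patterning genes covered a wide range. The 34 Hox genes, which set position along the body axis, had a median of -0.02, above the median gene, with 1 at least 2-fold higher and 9 lower. HOXC12 had 0.615 RPKM (7 reads) in polysomal and 22.6 RPKM (464 reads) in total mRNA (-4.37), HOXC13 was at -2.74 and HOXC8 at -3.03. The highest was HOXD9, at 31.8 RPKM in polysomal and 10.4 in total mRNA (1.56). In morphants the Hox median was 0.08, and there HOXC12 was at -1.87 and HOXC13 at -0.71. In wild type HOXC12, HOXC13 and HOXC8 were among 4 Hox genes that passed the floor through total mRNA alone, which fixes them as lower. The 30 Hox genes with 3 RPKM in both had a median of 0.07, where that of all genes was -0.16. The 105 Sox, Fox, Pax, Tbx, Nkx and related transcription factors had a median of -0.78, close to that of all genes, from sox13 (-5.33) to FOXQ1 (1.84). Of these 105, 38 passed the floor through total mRNA alone, sox13 among them, and 5 through polysomal mRNA alone, which fixes their direction. The 62 with 3 RPKM in both had a median of -0.44, below the -0.16 of all such genes. Among 13 genes of the segmentation clock, presomitic mesoderm and notochord (median -0.97 in wild type and 0.24 in morphants), the presomitic regulators msgn1 (2.28 RPKM in polysomal and 22.8 in total mRNA, -3.07) and tbx6 (-2.69) were low and the clock gene her12 was at 1.48. In morphants msgn1 was at -1.07 and tbx6 at -0.72. Of these 13 genes, 5 passed the floor in wild type through total mRNA alone, which fixes them as lower. The 8 with 3 RPKM in both wild-type libraries had a median of 0.0027, and the morphant median is over 14 genes.

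Immediate early and other short-lived mRNAs had a median of -0.34 over 36 genes, with 6 at least 2-fold higher and 9 lower. The shares were 16.7% higher and 25% lower, against 10.5% and 42.7% of all genes. FOS, a subunit of the AP-1 transcription factor, had 9.98 RPKM (356 reads) in polysomal and 0.247 RPKM (13 reads) in total mRNA of wild type (3.81). In morphants FOS had 18.2 RPKM in polysomal and 4.99 in total mRNA (1.77). JUNB (2.61 in wild type and 3.08 in morphants), ier2b (2.42 and 2.32) and the survival factor mcl1a (2.11 and 1.88) were more than 2-fold higher in both conditions. ZFP36L1 (ENSDARG00000016154), which speeds decay of AU-rich mRNAs, was at 4.71 RPKM in polysomal and 86.1 in total mRNA (-4.05), and MYCN at -2.77. Of the 36 genes, 4 passed the floor through the polysomal library alone, FOS and JUNB among them, and 8 through total mRNA alone. The floor fixes the direction of these genes. The 24 with 3 RPKM in both had a median of -0.20, where that of all genes was -0.16.

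A further list joined genes of the integrated stress response and genes with upstream open reading frames. Such frames hold back translation of the main frame in unstressed cells. The 27 genes of this list in the comparison had a median of 0.51, above the median gene. The list was not split, so this is not the median of mRNAs with upstream frames alone. Its members went in both directions. DDIT3 had 0.411 RPKM in polysomal and 6.01 in total mRNA (-2.84) and atf5b 1.43 and 9.87 RPKM (-2.43), both transcription factors known in mammals for upstream frames. Another such factor, atf4b, was at 118 RPKM in polysomal and 81.6 in total mRNA (0.53). In morphants these genes were at -3.18, -2.23 and 0.15. Of the 27 genes, 3 passed the floor in wild type through total mRNA alone, DDIT3 and atf5b among them. Another 2 passed through polysomal mRNA alone, among them the highest gene, a GADD45B (ENSDARG00000013576) at 1.83. The floor fixes the direction of these genes, and the 22 with 3 RPKM in both had a median of 0.52.

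Of 20 genes with known feedback on their own translation (polyamine, iron, haem and poly(A)-binding protein control), none was at least 2-fold higher (10.5% of all genes were). At least 2-fold lower were 6 of them, or 30%, against 42.7% of all genes. Their median of -0.13 lay above the median gene. The ferritin heavy chain fth1a, whose mRNA is held off ribosomes by iron regulatory proteins when iron is short, had 546 RPKM in polysomal and 738 in total mRNA (-0.43). OAZ1, the antizyme that needs a frameshift, was at 0.52 and OAZ2 at -3.48. The iron exporter SLC40A1 was at 5.503 and 21.9 RPKM (-1.898).

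Transcripts that code for no protein were present in the polysomal library as well. Of 61 small nucleolar, microRNA and other noncoding genes in the comparison, 13 were at least 2-fold higher and 31 lower, with a median of -1.08. The shares over all genes were 10.5% higher and 42.7% lower. With snorc, which the list's pattern also took, the list held 62 genes. Their gene models had a median length of 0.092 kb, at which a few reads make up 3 RPKM. Of these 62, 12 passed the floor through the polysomal library alone and 28 through the total library alone, which fixes their direction. The 22 with 3 RPKM in both had a median of -0.045, where that of all genes was -0.16. The long noncoding RNA oip5-as1 had 0.909 RPKM (18 reads) in polysomal and 34.3 RPKM (1132 reads) in total mRNA (-4.63). Another, linc-epb41l4a, which the list's pattern missed and the counts above leave out, had 1.16 and 104 RPKM (-5.98). The snoRNA host gas5, a TOP-type transcript in mammals, was at 11.6 RPKM in polysomal and 11.6 in total mRNA (-0.0018).

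The 12 lowest genes with a symbol all had many total reads and few polysomal reads for them. LIN28A (ENSDARG00000004328), an RNA-binding protein that blocks let-7 maturation, had no polysomal read in wild type and 633 reads (42.6 RPKM) in total mRNA, so the exact interval of its log2 read ratio reached no higher than -6.76. A second gene of that name (ENSDARG00000016999) was at -4.19. Pyruvate carboxylase PC had 1 read in polysomal and 5666 in total mRNA (0.0217 and 38.9 RPKM, -6.24). In morphants PC had 0 polysomal and 5126 total reads. The mRNA-binding protein igf2bp1 (ENSDARG00000061478) had 34 and 5787 reads (0.978 RPKM in polysomal and 102 in total mRNA, -6.12), the 14-3-3 protein ywhae2 10 and 2900 (-6.42), and the endothelial surface protein cd34 19 and 3174 (-5.93). The other genes were apobb.1, APOB, SLC2A1, linc-epb41l4a, the mitochondrial enzyme DMGDH (-6.12), fignl2 (-5.83) and erlin2 (-5.78). All 12 were also at least 2-fold lower in morphants, where they ranged from -7.59 to -4.36. The 12 highest were pvalb1, pvalb3, pvalb4, TNNI2, cox6b1, SLC25A4, FABP1, and2, and3 and 3 gamma M crystallins. In morphants these ranged from -0.01 to 2.47, and 6 of the 12 were at least 2-fold higher. Both sets were chosen by their wild-type ratio. In wild type pvalb3, SLC25A4, and2, and3 and the 3 gamma M crystallins passed the floor through the polysomal library alone. All 12 lowest genes passed it through total mRNA alone. The floor fixes the wild-type direction of all these genes.

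**Figure D3:**
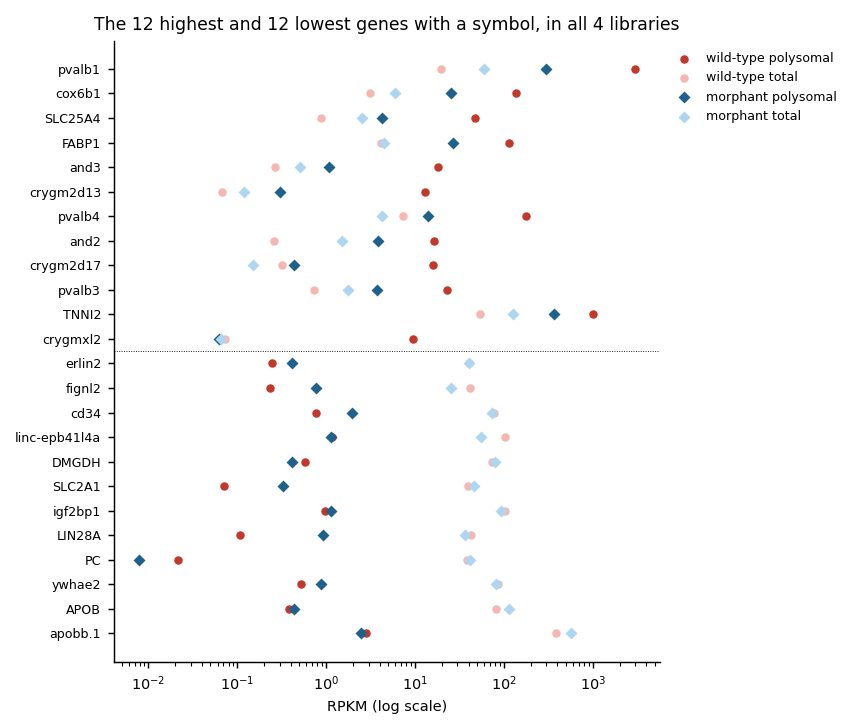
RPKM (log scale) of the 12 highest genes (above the dotted line) and the 12 lowest genes (below it) in wild-type polysomal, wild-type total, morphant polysomal and morphant total mRNA. In the low genes both polysomal libraries stand far to the left of both total libraries. In the high genes the wild-type polysomal library stands to the right of the other 3. The genes were chosen by their wild-type ratio, which sets the order of the wild-type libraries.

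The most abundant polysomal mRNA with a symbol was si:dkey-151g10.6 at 25064 RPKM in polysomal and 4376 in total mRNA (2.52), and it was followed by MT-CO3, MT-CO1, RPS29 and rps20. Thymosin tmsb4x, a small actin-binding protein, had 5834 RPKM in polysomal and 1731 in total mRNA (1.75). Among 38 tubulin, actin and actin-binding genes (median 0.58), the alpha tubulins TUBA1A (408 in polysomal and 78.6 RPKM in total mRNA, 2.37) and tuba1c (2.29) were high, and the Arp2/3 subunit actr3 was low, at 30.96 and 199.98 RPKM (-2.67). In the secretory pathway (47 genes, median -0.48), the small channel subunit SEC61G was at 2.34 and its large partner SEC61A1 at 0.07 and -1.23 in 2 genes. The large coat protein SEC31A was at 0.5505 RPKM in polysomal and 18.9 in total mRNA (-4.21).

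Across all genes the ratio went with gene model length. The median log2 ratio was -0.80 for 791 gene models under 0.5 kb, -0.29 for 1222 of 0.5 to 1 kb, -0.28 for 2810 of 1 to 2 kb, -0.60 for 3483 of 2 to 4 kb, -0.88 for 2584 of 4 to 8 kb and -1.22 for 1092 over 8 kb. Genes at least 2-fold higher made up 30.6% of the shortest bin and 0.916% of the longest. The shortest bin was split, with 47.3% of its genes at least 2-fold lower. Among genes with at least 12 RPKM in total mRNA, the medians went in 1 direction with length, through 0.66, 0.42, 0.03, -0.58, -0.88 and -1.24 in the same order of bins. The part of length in the group medians was not tested, beyond the medians relative to like length given above.

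The ratio also went with the level in total mRNA. Genes between 3 and 6 RPKM in total mRNA had a median of -1.08 (3358 genes), those between 25 and 50 RPKM -0.38 (1288), those between 100 and 400 RPKM 0.55 (445) and those over 400 RPKM 1.33 (135), where 58.5% were at least 2-fold higher. The 521 genes under 3 RPKM had a median of 1.12, but they passed the floor only because their polysomal value was high. Total RPKM is the denominator of the ratio, so the 2 measures are not independent. Abundant genes were also shorter, with a median gene model of 0.723 kb over 400 RPKM and 2.87 kb between 3 and 6 RPKM.

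Another property went with the low ratios. A gene model that holds nothing but coding sequence has a length that is a multiple of 3, and 33.3% of lengths would be so by chance. Of the genes above the floor 43.4% were, and the share was 63.3% among the 1395 genes at least 8-fold lower in polysomal mRNA, 47.2% between 8-fold and 2-fold lower, 36.7% within 2-fold and 39.5% among those at least 2-fold higher. Between 1 and 2 kb the median log2 ratio was -1.15 for 1282 multiples of 3 and 0.04 for 1528 other models, and in morphants -0.85 and 0.05. Without the multiples of 3, the medians of the low groups were -1.32 for receptors, -1.04 for cadherins, claudins and integrins, -1.29 for solute carriers, -1.35 for zinc fingers, -1.36 for ligands and -1.23 for chromatin regulators, all below the median of all such genes, -0.56. The yolk and liver group was not, at -0.10. These medians include genes that passed the floor through total mRNA alone, which fixes them as lower. The same medians were not made for genes with 3 RPKM in both libraries, so no conclusion on the gene models is drawn from them. Of the 12 lowest genes 5 had a multiple of 3, and of the 12 highest 6. How reads were assigned at gene ends is not given in the sources used here, and the part of the gene models in the ratios was not tested.

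**Figure D4:**
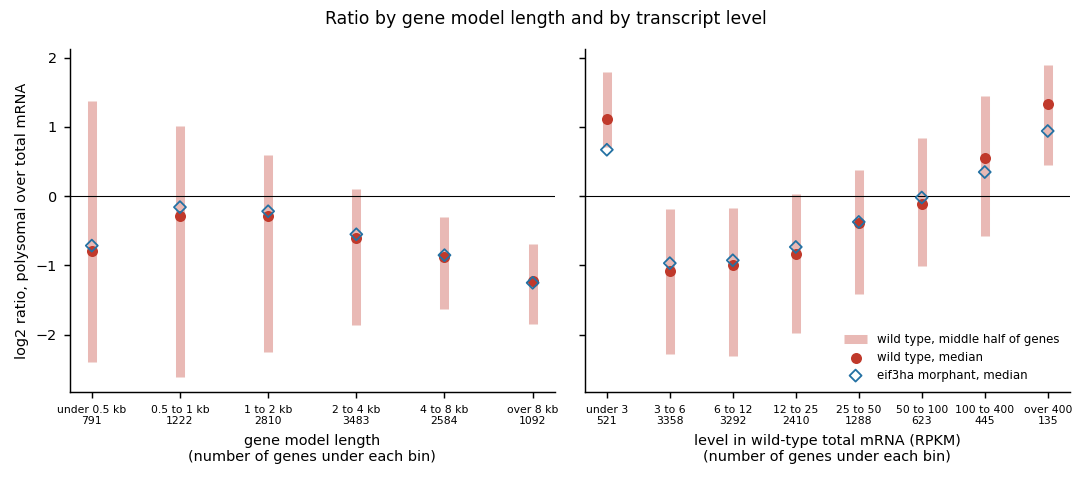
Log2 ratio of polysomal over total mRNA in bins of gene model length (left) and of level in wild-type total mRNA (right), with the number of genes under each bin. Red points are wild-type medians, pale bars run between the wild-type quartiles and blue diamonds are morphant medians. Wild-type medians sink with length from the bin of 1 to 2 kb on and climb with level from 3 RPKM on. The lowest-level bin is high because its genes passed the floor through polysomal mRNA.

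In morphants 814 of 11951 genes (6.81%) were at least 2-fold higher in polysomal mRNA and 4913 (41.1%) at least 2-fold lower, with a median of -0.70. The count higher was below that of wild type (1267) with the authors' scaling, but with median-of-ratios scaling it was 3060 in morphants and 2956 in wild type. Of the genes at least 2-fold lower in wild type, 82.8% were so in morphants, which is 86.9% of those lower in morphants. Of the genes at least 2-fold higher in wild type, 54.9% were so in morphants, which is 85.4% of those higher in morphants. Genes past 2-fold in opposite directions numbered 5 (higher in wild type and lower in morphants) and 0 (the reverse). Over 11433 genes above the floor in both, the log2 ratios of wild type and morphants had a Pearson r of 0.95 and a Spearman rho of 0.95 across genes, which are not independent replicates, and the points share gene lengths, gene models and annotation. No library is shared between the 2 comparisons.

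**Figure D5:**
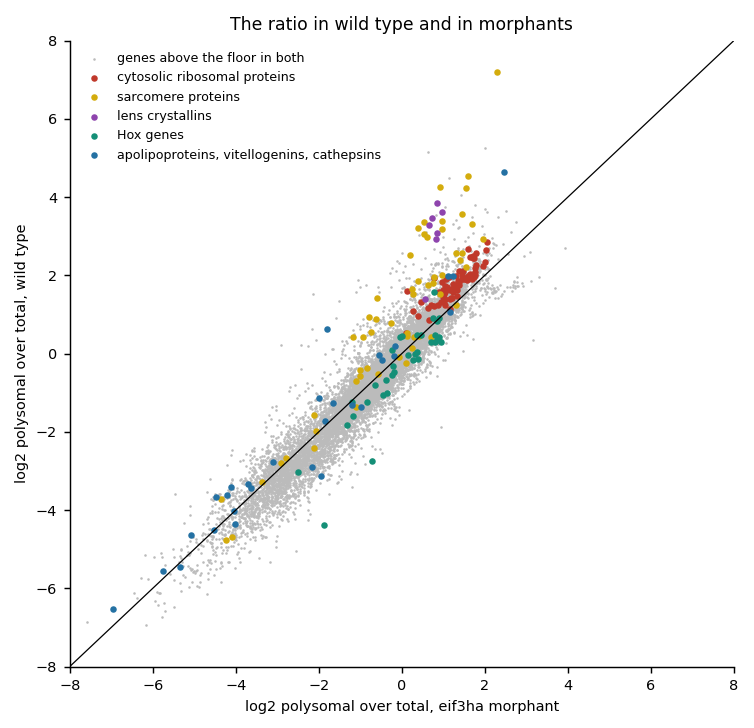
Each point is a gene above the floor in both conditions, with its log2 ratio of polysomal over total mRNA in eif3ha morphants on the horizontal and in wild type on the vertical axis. The line is equality. Low genes lie along the line, and most sarcomere and lens genes lie above it, with higher ratios in wild type than in morphants.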

How the data were processed

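One wild-type polysomal and 1 wild-type total library were compared, with the morphant pair beside them. The authors deposited 1 RPKM value per gene and library. Per the submitters' processing notes the genome build was Zv9. Which aligner, counter and annotation were used is not given in the sources. The RPKM steps gave back mapped reads (15769466 to 24939985 per library), gene model lengths and reads, with 1 read added per gene in the values as deposited. In a test on simulated data with 1500 genes, 96.7% of lengths were returned and 95.9% of those were right.

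The log2 ratio used a pseudocount of 0.5 RPKM, a floor of 3 RPKM in either library and a threshold of 2-fold. With 1 library a group no test was possible. The 95% intervals are exact Clopper-Pearson intervals of the 2 read counts, scaled to depth, and cover counting error only. Gene lists were matched by symbol. The rule named the 12 highest, 12 lowest and 12 most abundant genes of each library and up to 4 extreme members of each list with the one nearest its median. Other genes in the text were chosen after their values were seen, for their place in a family or pathway. The comparison and the lists were chosen with earlier results of these data known. Unnamed genes entered the counts only. Alternatives changed scaling, pseudocount, floor, fold and, added after seeing the data, length, multiples of 3 and intervals. Intervals came from scipy 1.17.1 and tables from pandas 2.3.3 and numpy 2.4.6 under Python 3.11.15. Figures were drawn with matplotlib 3.10.9.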

Additional observations from a re-analysis of the deposited data

Results flagged for a closer look

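Some medians and genes lay on opposite sides of 0 in wild type and in morphants. None of these differences was tested, since each group has 1 library. The place of 0 depends on scaling. Median-of-ratios scaling moved the median of all genes up by 0.71 in wild type and by 0.89 in morphants. The keratins and periderm genes had a median log2 ratio of polysomal over total mRNA of 0.079 in wild type and -0.55 in morphants. The segmentation clock, presomitic and notochord genes had a median of -0.97 in wild type and 0.24 in morphants. Of the 13 genes in wild type, 5 passed the floor through total mRNA alone, which fixes them as lower. The 8 with 3 RPKM in both wild-type libraries had a median of 0.0027, and the morphant median is over 14 genes. The pigment cell genes had a median of 0.90 in wild type and -0.53 in morphants. Keratin and pigment medians lay above the median of all genes in both conditions (-0.71 in wild type and -0.70 in morphants). The segmentation median lay below it in wild type and above it in morphants. With no floor the pigment median took the other side of the median gene in wild type.

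Past 2-fold in opposite directions were 5 genes, 4 of them with a symbol. The microRNA gene mir457b (ENSDARG00000081375) had a log2 ratio of 1.58 in wild type (4.06 RPKM in polysomal and 1.03 in total mRNA) and -1.09 in morphants (1.17 and 3.05 RPKM). Its counts were 4 polysomal and 1 total reads in wild type, and 1 and 4 in morphants. The microRNA gene mir19c (ENSDARG00000082428) was at 1.52 in wild type and -2.14 in morphants, with 6 polysomal and 2 total reads in wild type and 0 and 7 in morphants. The gene si:dkey-90a24.1 was at 1.89 in wild type (3.29 RPKM in polysomal and 0.521 in total mRNA) and -1.06 in morphants (7.81 and 16.9 RPKM). The gene si:dkey-21o19.8 was at 1.698 in wild type (4.53 RPKM in polysomal and 1.051 in total mRNA) and -1.02 in morphants (13.98 and 28.8 RPKM).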

How the results depend on the processing

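With 1 library a group, the limits are those of single libraries. A whole counting interval past 2-fold was held by 971 genes on the higher side (of 1267 called) and 4747 on the lower side (of 5156) in wild-type polysomal mRNA. Pseudocounts of 0.1 and 1 kept each count within 1.5 times. No paired analysis was possible because each group has 1 library. Protein length and the pyrimidine tract were not run, since no sequence was used here.

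The count higher in wild type was 2956 with median-of-ratios scaling, 2092 with upper-quartile scaling, 2082 without the 50 most abundant genes and 2850 centred on the median gene. It was 739 for gene models whose length is not a multiple of 3, 2384 relative to genes of like length, 2087 at 1.5-fold and 282 at 4-fold. The count lower in wild type was 8097 with no floor, 1767 with a floor of 12 RPKM, 1353 with 3 RPKM in both libraries, 2495 without multiples of 3, 3434 relative to like length and 2968 at 4-fold. In morphants the count higher (814) was 3060, 1737, 1396 and 2370 under the 4 scalings in the same order, 470 without multiples of 3 and 1780 relative to like length. The count lower in morphants (4913) was 2958 with median-of-ratios scaling, 3104 centred, 7949 with no floor, 1591 with 12 RPKM, 1309 with 3 RPKM in both, 2399 without multiples of 3 and 3117 relative to like length. A higher floor and the loss of multiples of 3 leave fewer genes to count.

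The wild-type median of all genes (-0.71) was 0.0054 with median-of-ratios scaling, which turns its sign, -0.31 with upper-quartile scaling and -0.31 without the top 50. It was -0.18 with no floor, -0.30 with 12 RPKM, -0.16 with 3 RPKM in both and -0.56 without multiples of 3. With no floor the hatching gland median (-1.11) was 0.029 and the noncoding median (-1.004) was 0.30. No floor lets in genes without a read in either library, whose deposited value is that of the 1 added read. At 1 kb this read is worth 0.0634 RPKM in wild-type polysomal and 0.0401 in wild-type total mRNA, so their log2 ratio lies above 0. The part of this in the medians was not tested. Of the other list medians over all settings, 343 moved by more than 0.1 and 179 did not. The named genes' ratios left their counting interval in 887 cases and stayed inside it in 1473.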

Other observations

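The fatty acid binding proteins, small carriers of lipid in the cytosol, did not share a side. The 7 genes above the floor had a median log2 ratio of 1.06 in wild type, with 4 at least 2-fold higher in polysomal mRNA and 2 lower. FABP3, the form of heart and muscle, had 505 RPKM in polysomal and 242 in total mRNA (1.06), and 1.16 was its ratio in morphants. FABP2, the form of the intestine, had 27.6 RPKM in polysomal and 298 in total mRNA of wild type (-3.41) and a ratio of -4.12 in morphants.

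Myeloid and vascular genes were few. Of 7 above the floor (median -1.30 in wild type and -0.75 in morphants), the endothelial cadherin cdh5 had 0.0846 RPKM in polysomal and 5.18 in total mRNA (-3.28) and the myeloid regulator CEBPA 2.86 and 24.4 RPKM (-2.89). The lysozyme gene lyz was more than 2-fold higher, at 2.901 in wild type and 0.82 in morphants, and it reached 3 RPKM in no wild-type library but the polysomal one. Of the 7 genes, 3 passed the floor through total mRNA alone, cdh5 and CEBPA among them, which fixes them as lower. The 3 with 3 RPKM in both had a median of -0.40, where that of all genes was -0.16.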
